A study of Danio rerio with 9 samples.

Results

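The genes described here encode ion channels, ion pumps, exchangers and calcium handling proteins. They were chosen by name from the 30628 genes of the deposited table: 282 names began with one of the family stems of these proteins (from *kcn*, *scn* and *cacn* to *ryr*, *atp2a*, *slc8a*, *casq* and *jph*), and 163 of them had at least 10 counts in 3 or more libraries. The other 119 were below that minimum. 1 of the 163, *scn12aa*, reached the minimum in the *Tg(cmlc2:tfeb)* libraries alone and therefore had to differ. Another, *kcnj1b*, did not pass the filter of the statistical test, so 162 genes were tested. The rule used names and counts. It was set with earlier results of these data known, and 1 group alone can meet the minimum of 3 libraries. Some main genes of the zebrafish heart, such as *plna*, *plnb*, *ryr2a* and *scn5laa*, are not analysed here.

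RNA was sequenced from hearts of adult zebrafish, which the methods describe as dissected ventricles of fish 6 months old and the labels as heart. The 3 groups were wild-type (WT) fish, fish heterozygous for the *mtor* xu015 mutant allele, and *Tg(cmlc2:tfeb)* fish, which express *tfeb*, a transcription factor that switches on genes of lysosomes and autophagy, from the *cmlc2* promoter that is active in cardiomyocytes. There were 3 libraries per group, each of 5 ventricles combined. The methods name WT siblings, but a single WT group served both lines, its columns in the table carry a tag of 9 months, and a difference in age or family between WT and either line cannot be told apart from the genotype.

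Each heartbeat starts with an action potential. Sodium channels depolarize the cardiomyocyte, L-type calcium channels let calcium in, ryanodine receptors release more calcium from the sarcoplasmic reticulum (SR), and potassium channels repolarize the membrane. Calcium is then pumped back into the SR by SERCA or expelled by the sodium-calcium exchanger, while the sodium-potassium ATPase maintains the gradients on which the whole cycle runs. HCN channels carry the pacemaker current, which in the adult heart is best known from the conduction system.

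The totals of estimated counts were 35440229 to 45273885 per library. Counts normalized for library size and composition are used throughout. For *tfeb* they were 2169, 1654 and 1706 in WT, 1732, 2126 and 1586 in the libraries labelled *mtor* xu015/+ and 22103, 26435 and 8783 in *Tg(cmlc2:tfeb)*, far higher in each transgenic library. For *mtor* they were 6602, 3970.2 and 2522 in WT, 6166, 7295 and 5389 in the libraries labelled *mtor* xu015/+ and 1899.5, 1904 and 1870.1 in *Tg(cmlc2:tfeb)*, so the libraries labelled *mtor* xu015/+ were not lower than WT and the count does not check that label. Of 12 marker lists of cell types, the summed counts of 7 did not overlap between *Tg(cmlc2:tfeb)* and WT. The summed normalized count of 12 cardiomyocyte genes was 3409570 to 3600360 in WT and 2598590 to 3006490 in *Tg(cmlc2:tfeb)*, that of 9 smooth muscle genes was 18100.5 to 18821.3 against 11767.2 to 14080.6, and all 10 proliferation genes were called higher. The erythroid sum was 144063 to 162820 in WT, 89527.6 to 115621 in the libraries labelled *mtor* xu015/+ and 187828 to 243151 in *Tg(cmlc2:tfeb)*, so that all 3 groups were separate. Between WT and *Tg(cmlc2:tfeb)* the endothelial sum was 46725.8 to 51486.7 against 56693.8 to 59850.2, that of epicardium and fibroblasts 29374.6 to 31126.4 against 34301.7 to 42609.5, and that of Schwann cells 559.03 to 751.67 against 343.41 to 479.8. In the libraries labelled *mtor* xu015/+ the Schwann cell sum was 340.21 to 523.11, also below WT. Outside the proliferation list, most tested genes of these lists were not called in *Tg(cmlc2:tfeb)* against WT. The calls were 1 higher and 2 lower of 12 for cardiomyocytes, 2 lower of 8 for smooth muscle and 3 higher of 10 for erythroid cells. They were 1 higher and 1 lower of 11 for endothelium, 2 higher of 12 for epicardium and fibroblasts and 1 lower of 4 for Schwann cells. The atrial myosin gene *myh6* was high in WT replicate 3 (30864) and in *Tg(cmlc2:tfeb)* replicate 1 (46764) and between 3939 and 8923 in the other 7 libraries. In bulk RNA fewer cells of a type and less RNA per cell cannot be told apart, and the part of these shifts in the results below was not tested.

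The comparison of *Tg(cmlc2:tfeb)* with WT asks which of these genes differ in ventricles that overexpress *tfeb* in cardiomyocytes. Genes were tested with edgeR (quasi-likelihood, 9 libraries in 1 model), with Benjamini-Hochberg adjustment over 21216 genes. A gene was called at an adjusted p under 0.05 with a change of at least 1.5-fold. Of the 162 tested genes, 12 were called higher and 21 lower in *Tg(cmlc2:tfeb)* than in WT, which is 20.4% of them. Over all genes tested 14.9% were called, 7.41% higher and 7.49% lower. Among the channel and calcium genes the calls were 7.4% higher and 13% lower. Without *scn12aa*, whose difference the count minimum fixed, 11 were called higher and 32 of 161 (19.9%) were called. The 11 still include *cacna1ha*, which passed the count minimum only with the libraries where it was high. Among the lower ones, *atp1a1a.2* passed it only with the libraries labelled *mtor* xu015/+. The lower genes *atp1a1a.3*, *kcnf1a*, *kcnk5a* and *kcnk13a* passed it only with libraries outside *Tg(cmlc2:tfeb)*, where they were high. Another 14 genes had an adjusted p under 0.05 but changed by less than 1.5-fold, 4 upward and 10 downward. The libraries of both groups did not overlap for 71 genes (43.8%, 27 higher and 44 lower), against a background of 42%. The median log2 fold change was -0.10 for these genes and -0.00063 over all genes, and the median absolute change was 0.38 against 0.28.

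The number of lower genes depended on single libraries. It was 11 without *Tg(cmlc2:tfeb)* replicate 2 and 12 without WT replicate 3, and 17 of the 33 calls (7 higher, 10 lower) held in each of the 9 fits that left out a library. The 7 include *scn12aa*, whose difference the count minimum fixed, and *cacna1ha*, which passed that minimum only with the libraries where it was high. The 10 include *atp1a1a.3*, which passed it only with libraries outside *Tg(cmlc2:tfeb)*, where it was high. With both libraries of high *myh6* left out, 7 genes were called higher and 12 lower, and 15 of these 19 genes were among the 33. The median log2 change was -0.016 without WT replicate 3. Called genes were found at every depth. They were 18 of 76 genes with a mean count under 100, 9 of 46 between 100 and 1000, and 6 of 40 above 1000. The 18 include *scn12aa*, *cacna1ha*, *atp1a1a.2*, *atp1a1a.3*, *kcnf1a*, *kcnk5a* and *kcnk13a*. The shares over all genes were 19.1%, 14.1% and 8.96%. The counts of calls by role below are to be read beside the 14.9% of all genes called, and most roles hold few genes.

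**Figure D1:**
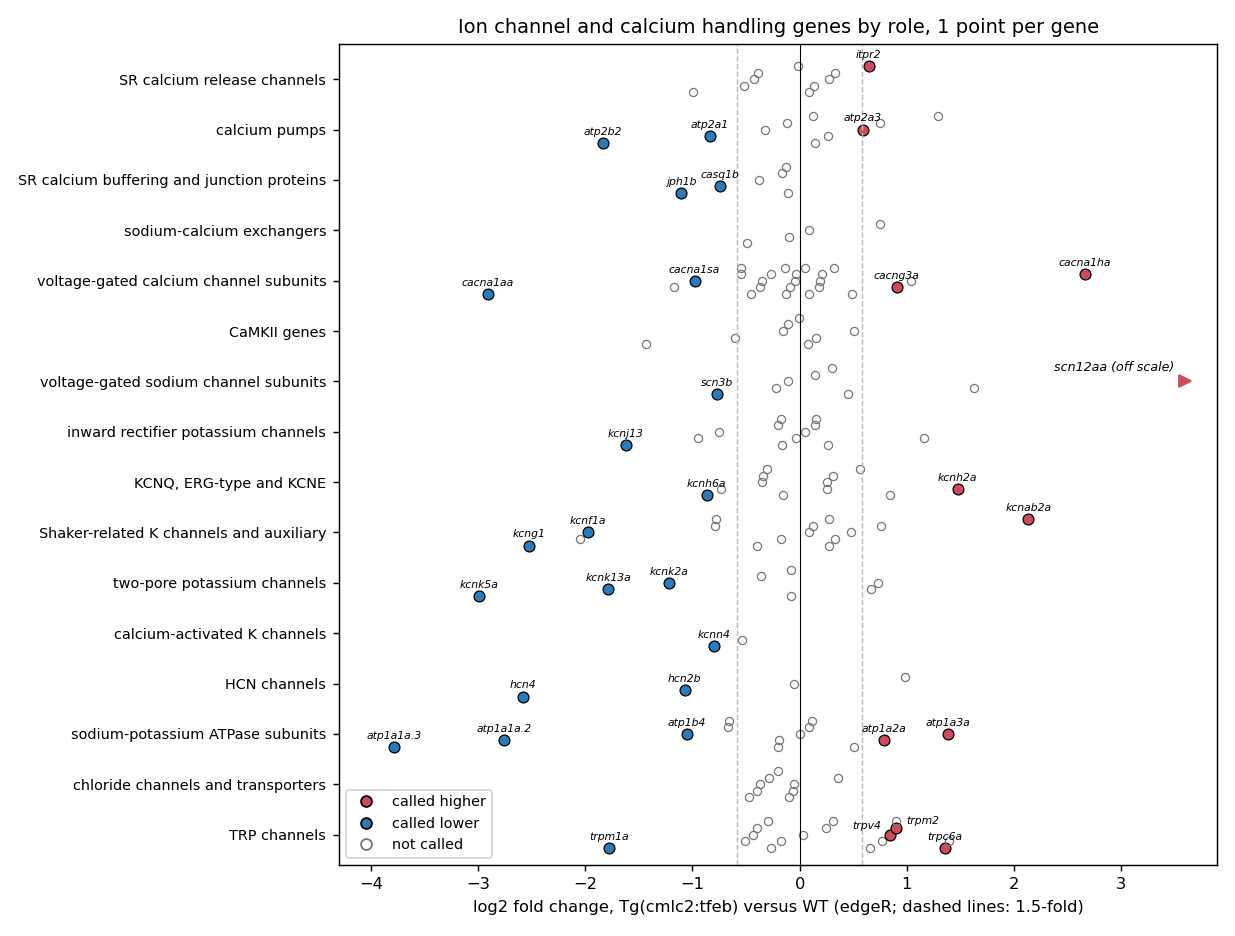
Change in *Tg(cmlc2:tfeb)* relative to WT (x axis, log2 fold from edgeR) for each tested gene, grouped by role (y axis; the spread within a role only separates the points). Filled points are the 12 genes called higher and the 21 called lower, open points were not called, and *scn12aa* lies beyond the axis. Chloride channels, exchangers and CaMKII genes hold no called gene.

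The machinery that carries the ventricular calcium cycle was described first. Of 25 main genes of cardiac excitation and calcium cycling, 2 were called higher, 2 lower and 21 were not called. That share is near the 14.9% of all genes called (7.41% higher and 7.49% lower). None of the genes for the cardiac ryanodine receptor, SERCA2, cardiac calsequestrin, triadin, the sodium-calcium exchanger, the L-type channel pore or the main cardiac sodium channel was among the called ones.

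The cardiac ryanodine receptor gene *ryr2b* (ENSDARG00000003706, chromosome 17, 20009132 to 20118244) had normalized counts of 67014, 83847 and 81948 in WT, 74532, 86711 and 60872 in the libraries labelled *mtor* xu015/+ and 88615, 93379.7 and 100344 in *Tg(cmlc2:tfeb)*. All 3 *Tg(cmlc2:tfeb)* libraries lay above the WT libraries, but the difference missed the threshold (log2 fold change 0.28, SE 0.13, edgeR adjusted p = 0.171). SERCA2, which refills the SR, is encoded by *atp2a2a*, whose counts of 217772, 214098 and 214352 in WT and 187976, 240728 and 274458 in *Tg(cmlc2:tfeb)* overlapped (log2 fold change 0.12, SE 0.13, edgeR adjusted p = 0.533). The transgenic libraries spread much more widely than the WT libraries for this gene, from 187976 to 274458. The other copy, *atp2a2b*, gave 2573, 2167 and 2452 and 2044, 2372 and 2222 (log2 fold change -0.12, SE 0.09, edgeR adjusted p = 0.42).

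Cardiac calsequestrin, the calcium buffer of the SR, is encoded by *casq2*. Its counts were 54384, 50847 and 47868 in WT and 36702, 42656 and 60678 in *Tg(cmlc2:tfeb)*, and *Tg(cmlc2:tfeb)* replicate 3 stood above every WT library while the other 2 stood below (log2 fold change -0.13, SE 0.16, edgeR adjusted p = 0.602). For *trdn*, which encodes the triadin that anchors calsequestrin to the release channel, the values were 6075, 4905 and 4875 and 4954, 4269 and 4906, with overlap (log2 fold change -0.17, SE 0.11, edgeR adjusted p = 0.292). Junctophilin 2, encoded by *jph2* (ENSDARG00000028625, chromosome 23, 35721607 to 35756115), holds the SR close to the cell membrane. Its counts of 5630.3, 5512 and 5287 in WT, 5024, 5806 and 5645 in the libraries labelled *mtor* xu015/+ and 4228, 4423 and 3998 in *Tg(cmlc2:tfeb)* did not overlap between WT and *Tg(cmlc2:tfeb)* and had an adjusted p of 0.0096 (edgeR), but the log2 difference of -0.38 (SE 0.08) was under the fold threshold.

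At the cell membrane, the sodium-calcium exchanger gene *slc8a1a* had 56776, 60644 and 54209.7 counts in WT and 54937, 58668 and 68794 in *Tg(cmlc2:tfeb)* (log2 fold change 0.09, SE 0.14, edgeR adjusted p = 0.685). Its copy *slc8a1b* had 21.8, 20.5 and 30.7 and 27.8, 51.3 and 43.5 (log2 fold change 0.75, SE 0.35, edgeR adjusted p = 0.157). The pore gene of the L-type channel, *cacna1c*, ranged from 5949 to 6727 over these 6 libraries (log2 fold change -0.05, SE 0.12, edgeR adjusted p = 0.824), and another L-type gene, *cacna1da*, from 3.38 to 28.9 (log2 fold change -0.09, SE 0.64, edgeR adjusted p = 0.933). The cardiac sodium channel gene *scn5lab* gave 3946, 4573 and 3932 and 4365, 4760.4 and 4628 (log2 fold change 0.14, SE 0.12, edgeR adjusted p = 0.413). None of these groups was separated. Apart from *slc8a1b* and *cacna1da*, the standard errors of the genes named so far were 0.08 to 0.16 on the log2 scale, which bounds the size of a difference that could be seen.

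**Figure D2:**
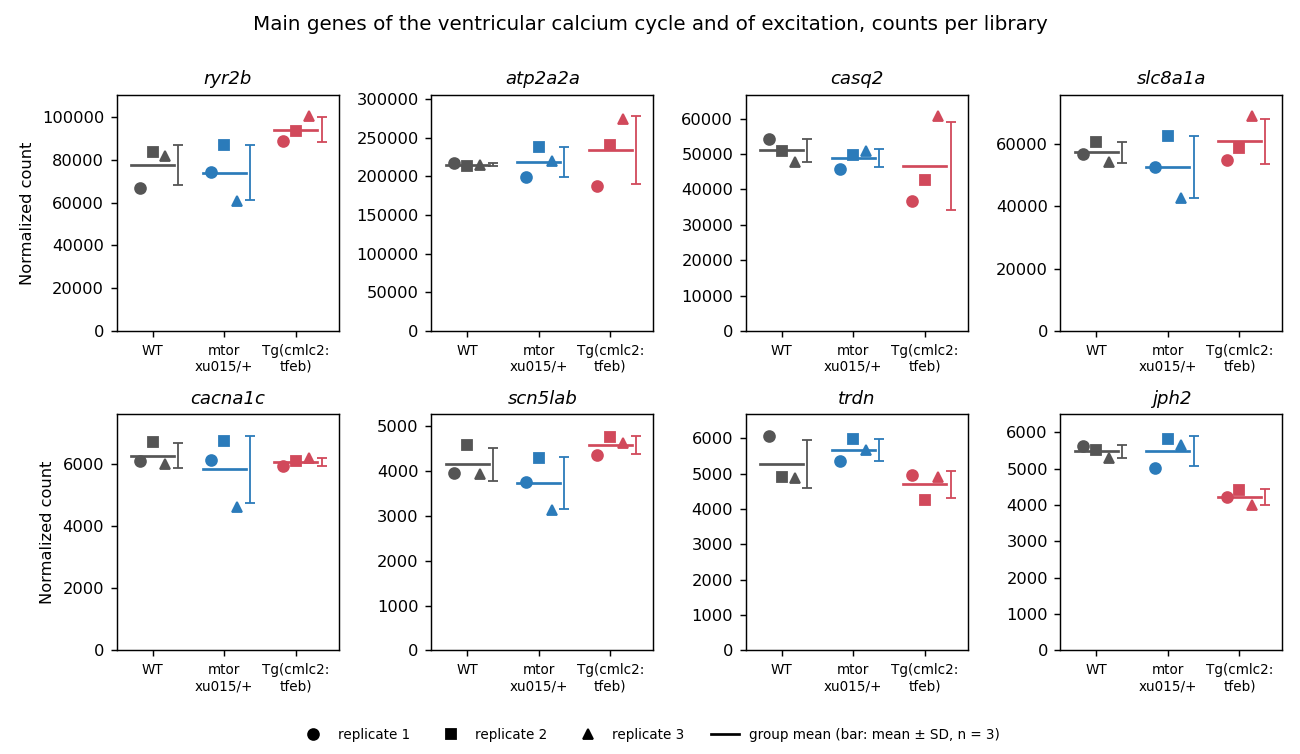
Normalized count per library (y axis, from 0) of 8 main genes of calcium cycling and excitation in the 3 groups (x axis). Symbols are libraries, horizontal lines group means and vertical bars the mean ± SD (n = 3). The *Tg(cmlc2:tfeb)* libraries overlap with WT for *atp2a2a*, *casq2*, *slc8a1a*, *cacna1c*, *scn5lab* and *trdn*, lie above WT for *ryr2b* (88615 to 100344) and below it for *jph2* (3998 to 4423).

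Among the genes for CaMKII, the kinase that phosphorylates ryanodine receptors and calcium channels, *camk2d1* was at 24.7, 84 and 84.3 in WT and 103, 66.4 and 43.8 in *Tg(cmlc2:tfeb)* (log2 fold change 0.15, SE 0.47, edgeR adjusted p = 0.847). Its paralogue *camk2d2* was at 3955, 3347 and 3291 and 1351, 2715 and 2929, with every transgenic library below the WT libraries but no call (log2 fold change -0.60, SE 0.25, edgeR adjusted p = 0.122). The sodium pump subunit genes *atp1a1a.1* (log2 fold change -0.20, SE 0.11, edgeR adjusted p = 0.223) and *atp1b1a* (log2 fold change 0.01, SE 0.10, edgeR adjusted p = 0.969) did not pass, and their libraries overlapped.

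Release channels and pumps of other types were called. *itpr2* (ENSDARG00000011909, chromosome 18, 15937610 to 16042504), for the type 2 inositol trisphosphate receptor, which releases calcium in response to hormones, had 509.5, 525 and 446 in WT, 474, 493 and 447 in the libraries labelled *mtor* xu015/+ and 792, 839 and 679.8 in *Tg(cmlc2:tfeb)* counts. Every *Tg(cmlc2:tfeb)* library exceeded all others, and the gene rose (log2 fold change 0.64, SE 0.10, edgeR adjusted p = 0.00254). Without WT replicate 3 or *Tg(cmlc2:tfeb)* replicate 2 its log2 change was 0.57 (adjusted p = 0.0116) and 0.58 (adjusted p = 0.0126), just under the fold threshold. In contrast *itpr1b*, for the type 1 receptor, was lower in all 3 transgenic libraries (637, 596 and 574 in WT and 405, 405 and 536 in *Tg(cmlc2:tfeb)*) and reached an edgeR adjusted p of 0.0455 at a log2 change of -0.43 (SE 0.13), short of 1.5-fold. Of the 10 genes grouped as release channels, 1 was called (10%, against 14.9% of all genes). The group includes *itprid1* and *itprid2*, which are named for interaction with the receptor and are not channel genes.

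*atp2a3* (ENSDARG00000060978, chromosome 5, 31168096 to 31269354), which encodes SERCA3, a calcium pump known from blood and endothelial cells of mammals, rose from 351, 335 and 446 in WT to 514, 551 and 641 in *Tg(cmlc2:tfeb)* (log2 fold change 0.59, SE 0.13, edgeR adjusted p = 0.0133). Erythroid and endothelial marker sums were also higher in *Tg(cmlc2:tfeb)*, as given above. The leukocyte sum overlapped, at 7376 to 9080.87 in WT and 6675.4 to 8859.8 in *Tg(cmlc2:tfeb)*, and 0 of its 12 tested genes were called. The part of these cells in the rise of *atp2a3* was not tested. The call sat at the threshold: the log2 change was 0.54 (adjusted p = 0.051) without WT replicate 1, 0.51 (adjusted p = 0.0518) without WT replicate 2 and 0.50 (adjusted p = 0.0422) without *Tg(cmlc2:tfeb)* replicate 3. The plasma membrane calcium pump gene *atp2b2* (ENSDARG00000063433, chromosome 11, 1148701 to 1291012) fell from 57.4, 36 and 38.3 to 14.5, 8.69 and 13.4 (log2 fold change -1.84, SE 0.32, edgeR adjusted p = 0.00432), and its libraries did not overlap. Of the 10 pump genes 1 was called higher and 2 lower (30% called, against 14.9% of all genes).

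All 6 genes for SR buffering and junction proteins had a lower mean in *Tg(cmlc2:tfeb)*, but the libraries of *casq2*, *trdn* and *jph1a* overlapped with WT. Only 2 of the 6 were called, too few genes to set against the 7.49% of all genes called lower. Both called genes are isoforms known from skeletal muscle of mammals. *casq1b* (ENSDARG00000018105, chromosome 7, 73717581 to 73752955), a calsequestrin 1 gene, had 5614, 5373 and 5309.9 in WT, 5933, 5936 and 8532 in the libraries labelled *mtor* xu015/+ and 2974, 3424 and 3317 in *Tg(cmlc2:tfeb)* counts. The transgenic libraries stood apart from the other 6, and the fall was -0.75 on the log2 scale (SE 0.14, edgeR adjusted p = 0.00529). *jph1b* (ENSDARG00000038826, chromosome 2, 30290719 to 30324610), a junctophilin 1 gene, had 571, 495 and 471 in WT, 665, 624 and 579 in the libraries labelled *mtor* xu015/+ and 262, 261 and 189 in *Tg(cmlc2:tfeb)*. Its change of -1.10 (SE 0.14, edgeR adjusted p = 0.000717) lay between -1.18 to -0.97 with any library left out. Among 20 skeletal muscle markers the summed count was 275529 to 301264 in WT and 192721 to 321623 in *Tg(cmlc2:tfeb)*, with 3 of the 10 tested called higher and 1 lower. Fast myosin and troponin genes such as *myhz2* and *tnnt3a* had at most 1.11 normalized counts, so the sum rests on other genes of the list. The log2 changes of the 10 tested ranged from -1.57 to 3.24.

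Among 24 voltage-gated calcium channel genes, 2 were called in each direction. The T-type channels open at low voltage. *cacna1ha* (ENSDARG00000060496, chromosome 3, 39759130 to 39952441), a T-type pore gene, had 11.5, 5.93 and 5.56 in WT, 8.46, 1.78 and 9.66 in the libraries labelled *mtor* xu015/+ and 25.6, 56.5 and 65.1 in *Tg(cmlc2:tfeb)* counts and rose (log2 fold change 2.66, SE 0.57). Every transgenic library exceeded every other library, although the counts were low. Its p is left out, because the gene passed the count minimum only with the libraries where it was high. The other T-type gene, *cacna1g*, had 7502, 10839.9 and 10018 in WT and 7991, 6323 and 5055 in *Tg(cmlc2:tfeb)*. Its groups overlapped, and its edgeR adjusted p of 0.0483 came with a log2 change of -0.55 (SE 0.17), below the fold threshold. *cacna1aa* (ENSDARG00000037905, chromosome 3, 33773156 to 33901483), which encodes a P/Q-type pore best known from nerve terminals, fell from 201, 146 and 103 to 8.43, 35.6 and 14.4 (log2 fold change -2.91, SE 0.66, edgeR adjusted p = 0.0127). The paralogue *cacna1ab* was at 148, 119 and 225 and 187, 216 and 150.2 in the same groups, with no separation. *cacng3a* (ENSDARG00000058460, chromosome 1, 9082417 to 9091935), an auxiliary gamma subunit gene, rose from 58.9, 72.3 and 72 to 136, 95.2 and 151 (log2 fold change 0.91, SE 0.23, edgeR adjusted p = 0.0197). That call was lost without WT replicate 1, at 0.81 (adjusted p = 0.0693), without *Tg(cmlc2:tfeb)* replicate 1, at 0.86 (adjusted p = 0.0541), and without *Tg(cmlc2:tfeb)* replicate 3, at 0.77 (adjusted p = 0.059).

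Of 8 sodium channel genes, 1 was called higher and 1 lower. The higher one, *scn12aa* (ENSDARG00000090724, chromosome 2, 51888033 to 52020049), is a pore-forming subunit gene with 0, 0 and 0.292 counts in WT, 0 in each library labelled *mtor* xu015/+ and 23.5, 11.5 and 44.4 in *Tg(cmlc2:tfeb)*. Against a floor of 3 counts per library its mean was at least 8.05-fold higher than in WT and at least 8.9-fold higher than in the libraries labelled *mtor* xu015/+. No p is given, because the gene passed the count minimum only through the libraries where it was high.

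The clearest fall among all these genes was in the HCN family. *hcn4* (ENSDARG00000061685, chromosome 18, 1004814 to 1143998), the main pacemaker channel gene of the vertebrate heart, had 716, 706 and 539 in WT, 659, 909 and 597 in the libraries labelled *mtor* xu015/+ and 91.9, 97.6 and 139 in *Tg(cmlc2:tfeb)* normalized counts. The 3 *Tg(cmlc2:tfeb)* libraries formed a group far below the other 6, and the highest of them was far under the lowest WT library (log2 fold change -2.59, SE 0.21, edgeR adjusted p = 0.00012). The change lay between -2.78 to -2.47 with any library left out. *hcn2b* (ENSDARG00000061665, chromosome 22, 18951096 to 19007968), which encodes another HCN channel, had 5019, 3707 and 4517 in WT, 4114, 5229 and 5384 in the libraries labelled *mtor* xu015/+ and 1556, 2105 and 2633 in *Tg(cmlc2:tfeb)*. It was again lowest in all 3 transgenic libraries (log2 fold change -1.07, SE 0.19, edgeR adjusted p = 0.0047), and the change held within -1.27 to -0.89.

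Markers of pacemaker and conduction cells moved in both directions in *Tg(cmlc2:tfeb)* against WT. Over 9 such genes the summed count was 2031.71 to 2166.4 in WT and 1312.46 to 2230.05 in *Tg(cmlc2:tfeb)*. Of the 7 tested, *tbx2b* was called higher, *bmp4* and *vsnl1a* were called lower and 4 were not called. *shox2*, at 24.2, 11.6 and 49.1 in WT and 15.9, 8.43 and 6.14 in *Tg(cmlc2:tfeb)*, was not called, and *isl1* was at or near 0 throughout. In the *mtor* line the sum of these 9 markers was 1464.28 to 1682.44, below every WT library. All 7 tested markers had negative log2 changes there against WT, and none passed the threshold. The *hcn4* counts of that line, at 659, 909 and 597, overlapped with WT. Whether the fall of *hcn4* in *Tg(cmlc2:tfeb)* comes with fewer cells that express it was not tested.

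**Figure D3:**
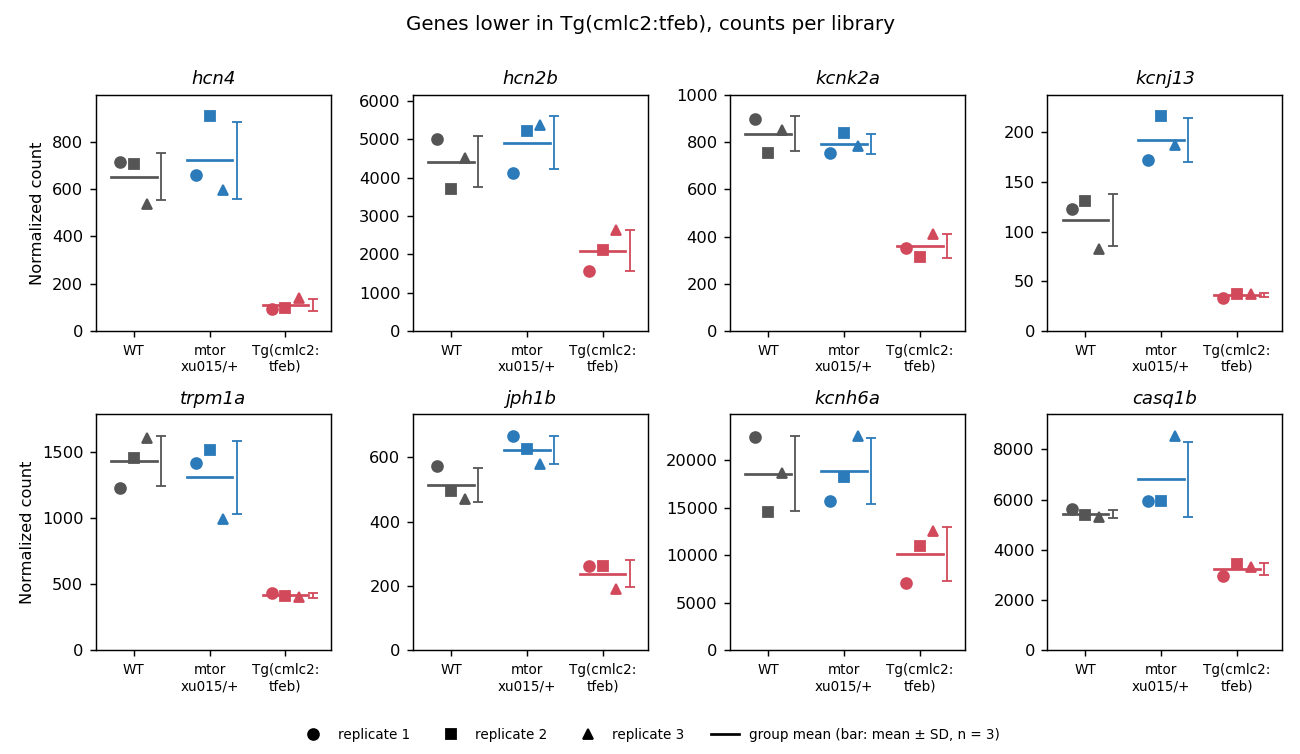
Normalized count per library (y axis, from 0) of 8 genes called lower in *Tg(cmlc2:tfeb)* than in WT, in the 3 groups (x axis). Symbols are libraries, horizontal lines group means and vertical bars the mean ± SD (n = 3). For each gene the 3 *Tg(cmlc2:tfeb)* libraries lie below all WT libraries, for *hcn4* at 91.9 to 139 against 539 to 716. The rule for naming called genes required this, except for *kcnh6a*, which was named as a main gene.

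Potassium channels shape repolarization and the resting potential. The ERG-type channels, which carry the rapid delayed rectifier current, were split. In zebrafish the ventricular ERG channel is encoded by *kcnh6a* (ENSDARG00000001803, chromosome 3, 31728871 to 31784082), whose counts were 22460.1, 14589 and 18599 in WT, 15736, 18202 and 22555 in the libraries labelled *mtor* xu015/+ and 7049, 10929.7 and 12504 in *Tg(cmlc2:tfeb)*. It fell (log2 fold change -0.87, SE 0.23, edgeR adjusted p = 0.025), and its transgenic libraries lay below all others. The call did not hold without WT replicate 1, at -0.71 (adjusted p = 0.0856), or WT replicate 3, at -0.87 (adjusted p = 0.0619). It was also lost without *Tg(cmlc2:tfeb)* replicate 1, at -0.66 (adjusted p = 0.0541), or replicate 2, at -0.92 (adjusted p = 0.0589).

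The gene *kcnh2a* (ENSDARG00000029881, chromosome 2, 24080694 to 24168670), an orthologue of the human ERG gene *KCNH2*, moved the other way. It had 63.2, 65.7 and 56.7 in WT, 48.8, 44.9 and 31.5 in the libraries labelled *mtor* xu015/+ and 235, 189 and 89 in *Tg(cmlc2:tfeb)*, and every transgenic library exceeded every other (log2 fold change 1.47, SE 0.32, edgeR adjusted p = 0.0116). Its change stayed called with any library left out, between 1.18 to 1.78, but with both libraries of high *myh6* left out it was 1.12 (adjusted p = 0.0982). *kcnq1.1*, for the slow delayed rectifier, was at 1751, 1699.7 and 1705 in WT and 2085, 2154 and 1933 in *Tg(cmlc2:tfeb)*. These did not overlap, and the adjusted p was 0.0372 (edgeR), but the log2 difference was 0.26 (SE 0.08). 2 of the 12 genes of this group were called, 1 in each direction.

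Inward rectifiers set the resting potential. For the channel genes of the main cardiac inward rectifier current, *kcnj12a* had 666, 684 and 616 counts in WT and 649, 699.8 and 835 in *Tg(cmlc2:tfeb)* (log2 fold change 0.15, SE 0.11, edgeR adjusted p = 0.368), and *kcnj2a* had 69.8, 34 and 31.9 and 161, 66 and 78.5 (log2 fold change 1.16, SE 0.43, edgeR adjusted p = 0.0848). Both overlapped. *kcnj13* (ENSDARG00000043443, chromosome 15, 40217256 to 40267485), an inward rectifier known in zebrafish from the pigment pattern of the skin, was the only called gene of the 12 tested. Its counts were 122, 131 and 82.1 in WT, 172, 216 and 188 in the libraries labelled *mtor* xu015/+ and 33.6, 37.2 and 37.6 in *Tg(cmlc2:tfeb)*, so all 3 groups were separated, with the transgenic libraries lowest and the libraries labelled *mtor* xu015/+ highest. The change against WT was -1.62 (SE 0.21, edgeR adjusted p = 0.000822) and held with any library left out, between -1.80 to -1.49.

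Among the K2P channels, which carry background potassium currents, 3 of 8 genes were called lower and none higher. That is 37.5% of few genes, where 7.49% of all genes were called lower. Of the 3, *kcnk5a* and *kcnk13a* passed the count minimum only with libraries outside *Tg(cmlc2:tfeb)*, where they were high. *kcnk2a* (ENSDARG00000055123, chromosome 17, 32657202 to 32698517), for the mechanosensitive channel TREK-1, had 899, 755 and 853 in WT, 756, 841 and 783 in the libraries labelled *mtor* xu015/+ and 354, 314 and 413 in *Tg(cmlc2:tfeb)* counts. The highest transgenic library was far below the lowest of the other 6 (log2 fold change -1.22, SE 0.11, edgeR adjusted p = 0.000205), and no library decided this, the range being -1.32 to -1.13. In the Shaker-related group with its auxiliary subunits, *kcnab2a* (ENSDARG00000087247, chromosome 11, 41540862 to 41699904), for a beta subunit that binds the channels inside the cell, rose from 12.4, 12.8 and 6.12 in WT to 50.5, 41.2 and 49.2 (log2 fold change 2.13, SE 0.32, edgeR adjusted p = 0.00185). Its paralogue *kcnab2b*, chosen after its values were seen, was at 438, 445 and 576 and 336, 375 and 400.4, lower in all transgenic libraries but not called (log2 fold change -0.39, SE 0.13, edgeR adjusted p = 0.0563).

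Of 17 TRP channel genes, which encode calcium-permeable cation channels and their partners, 3 were called higher and 1 lower (23.5% called, against 14.9% of all genes). *trpv4* (ENSDARG00000061941, chromosome 5, 19795977 to 19833310), an osmotic and mechanical sensor, had 1701, 2076 and 1796 in WT, 2164, 2557 and 2333 in the libraries labelled *mtor* xu015/+ and 3538, 3408 and 3049 in *Tg(cmlc2:tfeb)* counts. The 3 groups followed each other without overlap, and the rise in *Tg(cmlc2:tfeb)* was 0.84 on the log2 scale (SE 0.10, edgeR adjusted p = 0.0007). *trpc6a* (ENSDARG00000056625, chromosome 21, 22801257 to 22812449), for a channel opened by diacylglycerol, rose from 29.9, 22.1 and 41.1 to 98.8, 59 and 83.5 (log2 fold change 1.36, SE 0.29, edgeR adjusted p = 0.00974). *trpm1a* (ENSDARG00000011259, chromosome 7, 29312376 to 29341364), known from pigment cells and the retina, fell from 1230.0, 1459.7 and 1609.9 in WT to 435, 411 and 403 in *Tg(cmlc2:tfeb)* (log2 fold change -1.78, SE 0.16, edgeR adjusted p = 0.000166). The libraries labelled *mtor* xu015/+ were at 1415, 1517 and 996, also above every transgenic library.

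**Figure D4:**
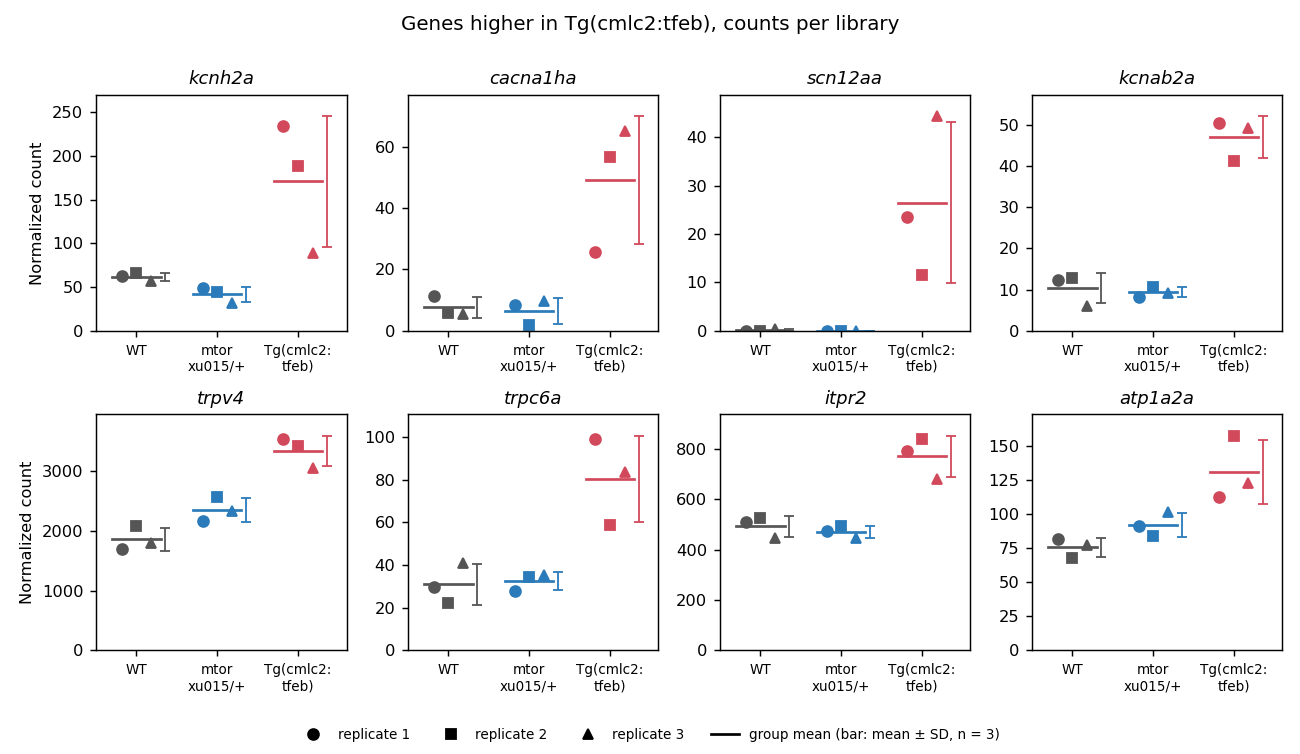
Normalized count per library (y axis, from 0) of 8 genes called higher in *Tg(cmlc2:tfeb)* than in WT, in the 3 groups (x axis). Symbols are libraries, horizontal lines group means and vertical bars the mean ± SD (n = 3). Every *Tg(cmlc2:tfeb)* library lies above every WT library, which the rule for naming called genes required. *scn12aa* is at or near 0 in the 6 libraries of the other groups. *scn12aa* and *cacna1ha* passed the count minimum only with the libraries where they were high.

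The sodium-potassium ATPase genes held 5 calls among 13 (38.5%, against 14.9% of all genes), 2 higher and 3 lower. Those of *atp1a3a* and *atp1b4* held in 6 and 5 of the 9 fits that left out a library. *atp1a1a.2* and *atp1a1a.3*, described below, had very low counts. *atp1a2a* (ENSDARG00000010472, chromosome 2, 44203075 to 44255537), for the alpha 2 subunit, rose from 81.5, 68.1 and 77.4 in WT to 113, 157 and 123 (log2 fold change 0.79, SE 0.17, edgeR adjusted p = 0.0116). The alpha 1 gene has several copies in a row on chromosome 1, and how reads shared by near-identical copies were assigned is not given in the sources used here, so their counts are uncertain. *atp1a1a.3* (ENSDARG00000039131, chromosome 1, 1805294 to 1815660) had 17.1, 27.1 and 12.1 in WT, 59.2, 37.8 and 49.1 in the libraries labelled *mtor* xu015/+ and 2.64, 0 and 1.13 in *Tg(cmlc2:tfeb)* counts. Over all libraries it had 51 counts in WT and 4 in *Tg(cmlc2:tfeb)*, a ratio of 14.9 with an exact 95% interval of 5.48 to 56.8. The interval treats the pooled values as read counts, which they may not be, and leaves out the spread between libraries. The p of *atp1a1a.3* is left out, because the gene passed the count minimum only with libraries outside *Tg(cmlc2:tfeb)*, where it was high. Its neighbour *atp1a1a.2* went the same way, at 9.17, 10.1 and 13.9 in WT, 56.6, 17.2 and 32.3 in the libraries labelled *mtor* xu015/+ and 1.55, 0.815 and 2.04 in *Tg(cmlc2:tfeb)*. That is 31 counts against 5, a ratio of 7.26 (2.8 to 23.9), and the call was lost without *Tg(cmlc2:tfeb)* replicate 2. Its p is left out, because the gene passed the count minimum only with the libraries labelled *mtor* xu015/+, where it was high. The first copy, *atp1a1a.1*, was not called, as given above.

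None of the 9 chloride channel genes, 8 CaMKII genes or 4 exchanger genes was called, although 3 chloride channel genes and 1 CaMKII gene had an adjusted p under 0.05. The CaMKII group includes *camk2n1a* and *camk2n2*, which encode inhibitors of the kinase. 12 called genes fell outside the rule by which genes were named for this comparison. *atp1a3a*, for a sodium pump alpha subunit, and the *trpm2* copy on chromosome 4 were called higher, and *atp1a1a.2*, *atp1b4*, *atp2a1*, *cacna1sa*, *kcnf1a*, *kcng1*, *kcnk13a*, *kcnk5a*, *kcnn4* and *scn3b* were called lower. Each of the 12 lost its call in at least 1 of the 9 fits that left out a library.

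The values of some of these 12 are given although they were chosen after they were seen. *atp2a1*, for SERCA1, the pump of fast skeletal muscle in mammals, had 99.9, 84.4 and 104 counts in WT and 54.3, 40.9 and 67.7 in *Tg(cmlc2:tfeb)* (log2 fold change -0.84, SE 0.21, edgeR adjusted p = 0.0211). *cacna1sa*, for the skeletal-type L-type pore, had 198, 274 and 260.1 and 149, 134 and 86.2 (log2 fold change -0.98, SE 0.26, edgeR adjusted p = 0.0251). Other genes of skeletal muscle isoforms were not called, among them *ryr1a* (log2 fold change -0.02), *jph1a* (-0.11) and *atp2a1l* (1.29). Each of *atp2a1* and *cacna1sa* lost its call in 4 of the 9 fits, with adjusted p-values up to 0.0664 and 0.0794.

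*scn3b*, for an auxiliary beta subunit of the sodium channel, had 15488, 10952 and 10869 counts in WT, 12050.4, 16932 and 14556 in the libraries labelled *mtor* xu015/+ and 5043, 7755 and 9031 in *Tg(cmlc2:tfeb)* (log2 fold change -0.77, SE 0.22, edgeR adjusted p = 0.0365). The transgenic libraries lay below the others, and the call was lost in 6 of the 9 fits, up to an adjusted p of 0.122. *kcng1*, for a subunit that makes no channel alone and modifies others, had 278, 43.6 and 148 in WT and 26.9, 19.5 and 37 in *Tg(cmlc2:tfeb)* (log2 fold change -2.53, SE 0.66, edgeR adjusted p = 0.0242), and was lost in 4 fits. Among the K2P genes, *kcnk5a* had 49.5, 10.9 and 46.3 and 5.97, 3.21 and 3.36 (log2 fold change -2.99, SE 0.92). *kcnk13a* had 22.3, 27.9 and 20.9 and 3.41, 7.01 and 10.1 (log2 fold change -1.79, SE 0.46). Their p is left out, because both passed the count minimum only with libraries outside *Tg(cmlc2:tfeb)*, where they were high. Both were low in every transgenic library, but leaving out 1 library lost the call in 6 fits for *kcnk5a* and in 4 for *kcnk13a*.

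Of the 14 genes with an adjusted p under 0.05 and a change below 1.5-fold, the negative ones included a pair of ryanodine receptor genes. *ryr1b*, of the skeletal type, had 5871, 7375 and 8065 in WT and 4699.9, 5926 and 4261 in *Tg(cmlc2:tfeb)* (log2 fold change -0.52, SE 0.15, edgeR adjusted p = 0.0374), with overlap. *ryr3* had 9391, 9405 and 8740.2 and 7068, 6916 and 7009 (log2 fold change -0.39, SE 0.07, edgeR adjusted p = 0.00585), without overlap. *clcn7*, for the chloride transporter of lysosomes, was at 1575, 1790.5 and 1488 and 1285, 1144 and 1316 (log2 fold change -0.37, SE 0.10, edgeR adjusted p = 0.0223), lower in every library of the line that overexpresses *tfeb*. The endosomal transporter gene *clcn3* lay on the other side, at 966, 985 and 977 and 1283, 1312 and 1165 (log2 fold change 0.36, SE 0.11, edgeR adjusted p = 0.0395). These genes too were chosen after their values were seen.

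*kcnj5* is named here because the study lists it as lower than WT in both lines. That choice was made on these samples and so is no independent evidence. The gene (ENSDARG00000061014, chromosome 18, 48576527 to 48643857) encodes a subunit of the G protein-gated channel through which vagal signals slow the heart, a channel best known from the atrium. Its counts were 66.7, 64.8 and 593 in WT, 84.4, 47.3 and 62.5 in the libraries labelled *mtor* xu015/+ and 193, 101 and 80.1 in *Tg(cmlc2:tfeb)*. WT replicate 3 stood far above the other 8 libraries, and the other WT libraries lay below all 3 *Tg(cmlc2:tfeb)* libraries. The log2 change in *Tg(cmlc2:tfeb)* was -0.95 (SE 0.77, edgeR adjusted p = 0.415). Without WT replicate 3 it was 0.93 (adjusted p = 0.152), in the opposite direction. In the libraries labelled *mtor* xu015/+ it was -1.90 (SE 0.81, edgeR adjusted p = 0.622) and -0.03 without that library. Another inward rectifier gene, *kcnj19a*, chosen after its values were seen, had 25.4, 22 and 266 in WT, 39.7, 19.6 and 16.1 in the libraries labelled *mtor* xu015/+ and 131, 95.8 and 78.5 in *Tg(cmlc2:tfeb)* and the same high library. The atrial myosin gene *myh6* was high in that library too, with 7742, 4315 and 30864 in WT, whereas *nppa*, another atrial marker, was at 55717, 75056 and 79165. The part of atrial tissue in these values was not tested.

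**Figure D5:**
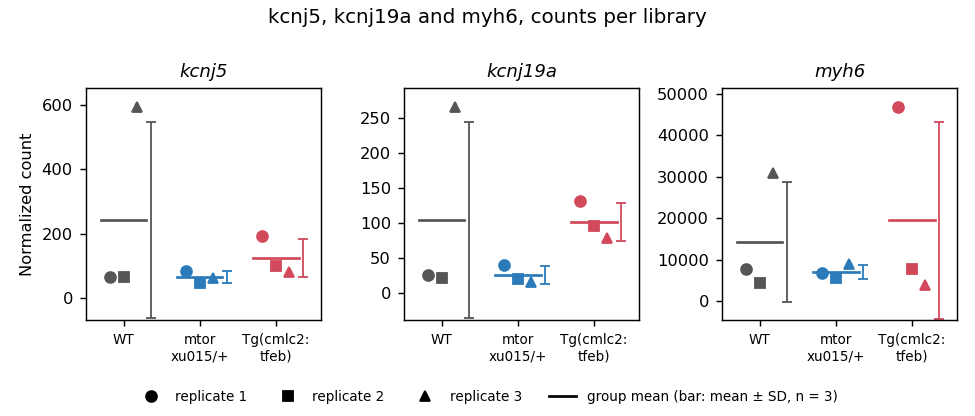
Normalized count per library (y axis) of *kcnj5*, *kcnj19a* and *myh6* in the 3 groups (x axis). Symbols are libraries, horizontal lines group means and vertical bars the mean ± SD (n = 3), which reach below 0 where a library stands far from the others. WT replicate 3 (triangle) is highest for both channel genes, at 593 and 266, and *Tg(cmlc2:tfeb)* replicate 1 (circle) is highest for *myh6*.

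The comparison of the *mtor* line with WT asks whether these genes differ in the libraries labelled *mtor* xu015/+. None of the 162 genes was called against WT (edgeR), where 0.0236% of all genes were called (0.00943% higher and 0.0141% lower). Each other setting that was tried, DESeq2 and limma-voom included, also called none. An unadjusted p under 0.05 was found for 19 genes (11.7%, background 7.86%). The libraries did not overlap for 26 genes (16%, background 13.3%), of which 20 were higher (12.3%, background 6.46%) and 6 lower (3.7%, background 6.82%). The median log2 change was 0.03.

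The 5 genes with the smallest p are given as values. *kcnj13* was higher in all 3 mutant libraries, as described above (log2 fold change 0.78, SE 0.19, edgeR adjusted p = 0.415). *atp1b3b* (ENSDARG00000042837, chromosome 15, 4353161 to 4415917), a beta subunit gene of the sodium pump, had 1041, 1004 and 992 counts in WT and 1253, 1443 and 2341 in the libraries labelled *mtor* xu015/+ (log2 fold change 0.73, SE 0.20, edgeR adjusted p = 0.485). *cacna1ab* (ENSDARG00000006923, chromosome 11, 30817943 to 31026335) had 148, 119 and 225 and 232, 346 and 344 (log2 fold change 0.91, SE 0.25, edgeR adjusted p = 0.485). Both groups were separate for these genes, but the largest *cacna1ab* value in WT was close to the smallest in the other group. *ryr1a* (ENSDARG00000011422, chromosome 10, 33406819 to 33540336), a skeletal-type ryanodine receptor gene, was lower, with 119, 89.3 and 105 in WT and 55.2, 71.8 and 63.6 (log2 fold change -0.71, SE 0.20, edgeR adjusted p = 0.495). *atp1a1a.2* (ENSDARG00000007739, chromosome 1, 1789357 to 1796832) had 9.17, 10.1 and 13.9 and 56.6, 17.2 and 32.3 (log2 fold change 1.61, SE 0.47). Its p is left out, because it passed the count minimum only with the libraries labelled *mtor* xu015/+, where it was high. The neighbour *atp1a1a.3* had 17.1, 27.1 and 12.1 and 59.2, 37.8 and 49.1 without overlap.

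The lines were then compared directly. Between *Tg(cmlc2:tfeb)* and the libraries labelled *mtor* xu015/+, 12 genes, *scn12aa* among them, were called higher and 21 lower (20.4%, and 19.9% without *scn12aa*), against 16% of all genes (8.09% higher and 7.95% lower). An unadjusted p under 0.05 was found for 73 of them (45.1%, background 37.5%). The libraries did not overlap for 81 genes (50%, background 41.8%). With any library left out 23 of the 33 calls held, *scn12aa*, *cacna1ha*, *cacna1sb*, *atp1a1a.2*, *atp1a1a.3* and *kcnf1a* included. These named genes passed the count minimum only with libraries where they were high. This comparison shares its transgenic libraries with the one against WT, so the calls are not independent of those above. *hcn4* was at -2.73 (SE 0.21, edgeR adjusted p = 7.86e-05) and *kcnj13* at -2.40 (SE 0.20, edgeR adjusted p = 0.000117). For *kcnh2a* the log2 change was 2.04 (SE 0.33, edgeR adjusted p = 0.00261) and for *trpv4* 0.50 (SE 0.10, edgeR adjusted p = 0.00735), so that *trpv4* was under the fold threshold here.

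Among the 8 genes called only in the direct comparison, the 5 with the smallest p were *cacna1sb*, *itpr1b*, *cacna1g*, *scn1lab* and *ryr1a*. That a gene was called here and not against WT does not show that WT and the libraries labelled *mtor* xu015/+ differ in it. *cacna1sb* (ENSDARG00000042552, chromosome 8, 25767610 to 25808403), a skeletal-type L-type pore gene, was at 6.38, 11.6 and 8.74 in WT, 16.5, 17.7 and 25.6 in the libraries labelled *mtor* xu015/+ and 1.7, 3.48 and 6.72 in *Tg(cmlc2:tfeb)* (log2 fold change -2.34, SE 0.50). Its p is left out, because it passed the count minimum only with the libraries labelled *mtor* xu015/+, where it was high. *cacna1g* (ENSDARG00000089913, chromosome 12, 27704015 to 28073562) was at 11087, 11193 and 10652 and 7991, 6323 and 5055 (log2 fold change -0.77, SE 0.17, edgeR adjusted p = 0.0118), and the transgenic libraries were all lower. The call of *cacna1g* held with any library left out. *itpr1b* (ENSDARG00000074149, chromosome 11, 35777329 to 36020005), at 682, 777 and 604 and 405, 405 and 536 (log2 fold change -0.62, SE 0.13, edgeR adjusted p = 0.00917), was lost by size alone without *mtor* xu015/+ replicate 2, at -0.52 (adjusted p = 0.0317), or *Tg(cmlc2:tfeb)* replicates 1 and 2, at -0.54 (adjusted p = 0.0347) and -0.54 (adjusted p = 0.0418).

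*scn1lab* (ENSDARG00000062744, chromosome 6, 10248332 to 10320676), a sodium channel gene, was at 21.7, 14.2 and 30.2 in WT, 12.5, 20 and 20.4 in the libraries labelled *mtor* xu015/+ and 98.2, 84.4 and 21.7 in *Tg(cmlc2:tfeb)* (log2 fold change 1.93, SE 0.53, edgeR adjusted p = 0.0277). Of the 3 transgenic libraries, 2 were high and replicate 3 was within the range of WT. Its call was lost without any one *mtor* xu015/+ library, at 1.73 (adjusted p = 0.0872), 2.04 (adjusted p = 0.0627) and 2.05 (adjusted p = 0.065), and without *Tg(cmlc2:tfeb)* replicate 1 or 2, at 1.58 (adjusted p = 0.0859) and 1.76 (adjusted p = 0.083). *ryr1a* was at 55.2, 71.8 and 63.6 and 119, 81.2 and 109.6 (log2 fold change 0.70, SE 0.20, edgeR adjusted p = 0.031). It was lost without *mtor* xu015/+ replicate 1 or 3, at 0.60 (adjusted p = 0.0934) and 0.70 (adjusted p = 0.0759), and without *Tg(cmlc2:tfeb)* replicate 1 or 3, at 0.59 (adjusted p = 0.0905) and 0.65 (adjusted p = 0.076).

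Genes that work with these channels but carry other names were examined as lists. Of 32 tested partners of calcium cycling, such as store-operated entry, T-tubule and calmodulin genes, 2 were called higher and 1 lower in *Tg(cmlc2:tfeb)* than in WT, a share of 9.38% where 14.9% of all genes were called. *stim2b*, for an SR calcium sensor, rose from 12.8, 20.9 and 15.3 to 45.9, 42.6 and 40.3 (log2 fold change 1.41, SE 0.28, edgeR adjusted p = 0.00743). The copies of *bin1*, whose product shapes T-tubules in mammals, were called in opposite directions. *bin1b* was at 30.1, 28.1 and 36.7 in WT and 107, 90.4 and 58.1 in *Tg(cmlc2:tfeb)* (log2 fold change 1.43, SE 0.28, edgeR adjusted p = 0.00643), and *bin1a* at 19.6, 12.6 and 13.4 and 5.06, 3.03 and 5.76 (log2 fold change -1.76, SE 0.51, edgeR adjusted p = 0.0349). The *bin1b* call held with any library left out, whereas that of *bin1a* was lost in 7 of 9 such fits, with an adjusted p of up to 0.126.

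Of 13 mitochondrial calcium uptake genes 2 were called higher (15.4%, near the background). *letm1*, for an ion exchanger of the inner membrane, was at 739.8, 982 and 979.7 and 1486, 1438 and 1383 (log2 fold change 0.67, SE 0.16, edgeR adjusted p = 0.0145), and *micu3b*, for a regulator of the calcium uniporter, at 235, 379.9 and 455 and 691, 590.5 and 759.9 (log2 fold change 0.93, SE 0.28, edgeR adjusted p = 0.0411). The *letm1* call was lost without WT replicate 1 (0.55 (adjusted p = 0.049)) and that of *micu3b* in 6 of 9 such fits. 1 of 35 genes of beta-adrenergic and calcineurin signalling was called (2.86%, below the background), the calcineurin target *nfatc1*, at 1184, 1799.5 and 1484 in WT, 2265, 2495 and 1993 in the libraries labelled *mtor* xu015/+ and 2432, 2311 and 2287 in *Tg(cmlc2:tfeb)* (log2 fold change 0.65, SE 0.14, edgeR adjusted p = 0.0112). Without WT replicate 1 it was at 0.51 (adjusted p = 0.0267). Of 4 tested gap junction genes, too few to set against the background, *gja5b*, a connexin gene, was called, at 4897, 5195 and 4486 and 7425, 8268 and 6666 (log2 fold change 0.62, SE 0.12, edgeR adjusted p = 0.00784), and it was at 0.56 (adjusted p = 0.0349) without WT replicate 3 and 0.54 (adjusted p = 0.0332) without *Tg(cmlc2:tfeb)* replicate 2. No gene of these lists was called in the libraries labelled *mtor* xu015/+ (edgeR), and 2, 2, 1 and 0 of them had an unadjusted p under 0.05.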

How the data were processed

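The authors deposited 1 table of estimated counts per gene for 9 libraries, with columns named as scaled TPM. Per the labels' processing notes reads were handled with bcl2fastq 2.17, Trimmomatic 0.36 and STAR 2.5.2b on GRCz11, whereas the paper's methods name TopHat and Cufflinks. Which of these made the table is not settled, and among values from 0.5 to 5.5 only 58.5% were whole to within 0.1, so the values may be rescaled abundances and not read counts. How shared reads were divided is not given in the sources used here. Positions are those of the table, taken as GRCz11. Totals were 35440229 to 45273885 per library, and 4721 genes carried no name.

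The values were rounded to whole numbers and filtered with filterByExpr. TMM factors were computed, and edgeR's quasi-likelihood test (edgeR 4.0.16, R 4.3.3) was fitted on all 9 libraries. P-values were adjusted by Benjamini-Hochberg over 21216 genes. A call needed an adjusted p under 0.05 and at least 1.5-fold, the cut-offs of the study. Normalized counts are counts divided by the effective library size and scaled to a common size, and their group values are mean ± SD over 3 libraries in the plots. With 3 libraries against 3, an exact two-sided permutation test of a single gene cannot go below 0.1. Standard errors come from the same fit. The p-values measure the spread between pools of 5 ventricles.

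Members were found by name pattern with at least 10 counts in 3 or more libraries, and itprip was left out. Members, marker lists, pathway lists and the naming rule were chosen with earlier results of these data known. The genes named were the main genes of cardiac excitation and calcium cycling present in the table (with *kcnj5*), the 10 called genes with the smallest p in each direction whose 6 libraries did not overlap between *Tg(cmlc2:tfeb)* and WT, the 5 smallest p in the *mtor* comparison and the 5 smallest among calls found only in the direct comparison, plus up to 5 called genes in each direction of a pathway list. Alternatives were other size factors, other filters, DESeq2 1.42.0, limma-voom (limma 3.58.1), the 6 libraries compared, a replicate block and leaving out each library. Other fold thresholds were applied to the counts of calls alone. The tests were tried on simulated data. Tables and plots used Python 3.11.15, pandas 2.3.3 and matplotlib 3.10.9. Sequences are not shown here.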

Additional observations from a re-analysis of the deposited data

How the results depend on the processing

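Most values kept their direction and their side of the threshold: of 1080 values for the named genes under other settings, 996 did, 65 lost the call, 5 gained one and 14 changed sign. The 996 include genes that were not called in the main fit and stayed so. Calls in *Tg(cmlc2:tfeb)* against WT outside the naming rule are not among the 1080, so these numbers do not measure how stable the calls were. A further alternative, leaving out WT replicate 3 and *Tg(cmlc2:tfeb)* replicate 1, the libraries of high *myh6*, was chosen after seeing the data. The 18 alternatives for a named gene all kept the 1.5-fold threshold. Among the named ion channel and calcium genes, 14 were called in *Tg(cmlc2:tfeb)* against WT under all 18: *hcn4*, *hcn2b*, *kcnk2a*, *kcnj13*, *trpm1a*, *jph1b*, *casq1b*, *atp2b2*, *atp1a1a.3*, *trpv4*, *kcnab2a*, *trpc6a*, *cacna1ha* and *atp1a2a*. *bin1b*, of the calcium cycling partners, was too. Of these, *cacna1ha* and *atp1a1a.3* passed the count minimum only with libraries where they were high. The call of *cacna1aa* was lost with limma-voom (adjusted p = 0.0602) and without both libraries (edgeR adjusted p = 0.0553). The cause of these changes was not tested.

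In *Tg(cmlc2:tfeb)* against WT, between 9 and 12 genes were called higher and between 11 and 21 lower with any library left out. Without both libraries of high *myh6* there were 7 higher and 12 lower, and at a 2-fold threshold 6 higher. With no fold threshold there were 16 higher and 31 lower. In the direct comparison the ranges with any library left out were 9 to 12 higher and 17 to 22 lower, and the settings gave 8 to 17 higher and 14 to 30 lower. The median log2 change of all tested channel and calcium genes ranged from -0.108 to -0.0163 in *Tg(cmlc2:tfeb)*, from 0.0141 to 0.0352 in the *mtor* line and from -0.128 to -0.0712 in the direct comparison with any library left out. It was -0.0444 in *Tg(cmlc2:tfeb)* without both libraries, and in the direct comparison -0.0857 with upper-quartile factors, -0.0898 with limma-voom and -0.0922 with 6 libraries.

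For the calcium cycling partners, the higher count was 1 without both libraries. The lower count was 0 with no filter, with DESeq2 and with the replicate block, 0 to 1 with any library left out, 2 without both libraries and 3 with no fold threshold. For mitochondrial uptake the higher count was 0 to 2 with any library left out, 0 without both libraries and at 2-fold, and 4 with no fold threshold. For beta-adrenergic and calcineurin signalling it was 0 to 2 with any library left out, 2 with DESeq2 and with no fold threshold, and 0 without both libraries and at 2-fold, while the lower count was 1 with no fold threshold. For gap junction genes the higher count was 0 to 1 with any library left out and 0 without both libraries and at 2-fold, and the lower count was 1 with limma-voom and with the replicate block and 0 to 1 with any library left out.

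The values that changed sign belong to genes that were not called. With any library left out, their log2 changes in *Tg(cmlc2:tfeb)* ranged from -1.40 to 0.93 for *kcnj5* (the highest without WT replicate 3), from -0.24 to 0.39 for *camk2d1*, from -1.18 to 0.34 for *cacna1da*, from -0.0068 to 0.26 for *atp2a2a*, from -0.36 to 0.021 for *casq2*, from -0.011 to 0.16 for *slc8a1a*, from -0.025 to 0.030 for *atp1b1a* and from -0.079 to 0.0051 for *cacna1c*. Without both libraries *kcnj5* was 0.47 and *atp1b1a* -0.050.

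No pairing by replicate number was seen, as the deviations of same-numbered libraries correlated at -0.024 to 0.089. With 3 libraries a group this does not show that the libraries are unpaired. With the replicate number as a block, 35 genes were called against WT in *Tg(cmlc2:tfeb)*, of which 32 were shared with the 33, and 34 in the direct comparison, of which 30 were shared. Low counts limit *cacna1ha*, *scn12aa*, *atp1a1a.2* and *atp1a1a.3*, and 3 libraries a group limit all calls.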

Other observations

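The table also holds 13 names of these families in capital letters, which the name rule did not take. *KCNJ15*, an inward rectifier gene, had 22.1, 16.2 and 23.1 normalized counts in WT, 17.7, 15.9 and 10.4 in the libraries labelled *mtor* xu015/+ and 9.45, 6.98 and 3.37 in *Tg(cmlc2:tfeb)*, and it was called lower in the last of these (log2 fold change -1.58, edgeR adjusted p = 0.0266). An entry named *RYR2* had a mean of 72.6 in WT and 85.5 in *Tg(cmlc2:tfeb)* and was not called (log2 fold change 0.24, edgeR adjusted p = 0.319).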
